A study of Mus musculus with 6 samples.

Results

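A set of 7 genes of the node of Ranvier and its flanking paranode and juxtaparanode was followed by symbol across the 6 arrays of a mouse optic nerve series. They were Cntn2, Hapln2, Nfasc, Omg, Tnr, Cntn1 and Cntnap1. Of these 7 genes, 6 had 1 probe each that could be tied to its array values, and these 6 probes stood among 6656 named genes measured in the series. The gene number carried by the array row matched the linked gene for 5 of them, all but Hapln2, whose row could not be checked in this way. Cntnap1 was not measured. Nfasc has 4 annotated probes, of which 1 carried values. The nerves came from LIF-/- mice on CD1 background, which lack the cytokine leukemia inhibitory factor, and from CD1 wild-type mice, all labelled male and untreated after dissection. Each array received RNA of 1 pool, made from 10 nerves at postnatal day 10, from 8 at day 14 and from 4 at day 35, the adult stage of the labels. The series asks how LIF bears on the timing of oligodendrocyte development and myelin formation. With 1 array for each genotype and age there is no replicate within a group, so a difference at a single age is given as a value without a test, and neighbouring levels of a gene cannot be set against a replicate spread.

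Myelinated axons conduct by regenerating the impulse at nodes of Ranvier, short gaps in the sheath where sodium channels cluster. On either side of the gap the glial loops attach to the axon at the paranode, through the axonal pair of contactin-1 (Cntn1) and Caspr (Cntnap1) and the glial form of neurofascin (Nfasc). Beyond it lies the juxtaparanode, where contactin-2 (Cntn2) with Caspr2 holds potassium channels, and around the node lies an extracellular matrix that includes tenascin-R (Tnr) and the link protein Hapln2. The optic nerve is a central nervous system tract, so its myelin comes from oligodendrocytes, and the cell bodies of its axons lie in the retina and not in the nerve.

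Between 12222 and 13292 probes were detected per array (detection p below 0.05), with median raw signals of 51.8 to 61.9. All 14 tested myelin markers and all 10 tested astrocyte markers were detected on every array, as were 7 to 9 of 9 axon and neuron markers. Both younger ages were hybridised on 1 slide and the adult arrays on a separate one, so a genotype comparison stays inside a slide, whereas age and slide cannot be told apart in any change up to day 35. The ribosomal control was brighter on the slide of the younger ages (3061 to 3812) than on the adult slide (1576 to 1655). Lif itself gave low signals of 5.04 to 5.71 log2 units that were detected on all 6 arrays, knockout included, and at day 10 its raw signal was 88.2 for the knockout pool against 75.4 for the wild-type pool. Since no source used here places its probe inside or outside the disrupted sequence, the genotype labels could not be checked with it. Among Y-linked probes, Eif2s3y was undetected in the wild-type pool of day 10 (raw signal 55.4), although Kdm5d was detected there (97.2), and neither was detected in the knockout pool of day 35 (39.5 and 37.5), which goes against the male label there. Tests of change with age are given below with and without these arrays, whereas a genotype difference at a single age cannot be formed without them. Markers of neighbouring tissues also varied between pools. The summed signal of 9 skeletal muscle markers across the 3 ages was 3188, 411 and 10193 for knockout pools against 4724, 1411 and 589 for wild-type pools, that of 8 photoreceptor markers 462, 1020 and 239 against 246, 271 and 319, and that of 5 pituitary markers 149, 139 and 887 against 829, 903 and 322. The part of these tissues in the results was not tested.

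Signals are normalized log2 intensities, in which 1 unit is a doubling, and compare arrays for 1 probe, not probes with each other. From day 10 to day 35 all 6 measured genes changed, 3 upward and 3 downward, each past an adjusted p of 0.05 in limma's moderated test with both genotypes as repeats. The contactin of the juxtaparanode (Cntn2), the nodal link protein (Hapln2) and the oligodendrocyte-myelin glycoprotein (Omg) rose. The paranodal contactin (Cntn1), neurofascin (Nfasc) and tenascin-R (Tnr) fell. Over all 13827 probes tested, 20.8% passed in this comparison, 10.6% higher and 10.2% lower at day 35. The 6 genes were chosen with earlier results of these data known, so their count beside that share is a description and no independent result. In whole nerve, fewer cells of a type and less RNA per cell cannot be told apart. In each genotype alone all 6 genes differed by more than 1 log2 unit between days 10 and 35, in the same directions. Under other processing 2 of them did not pass that size, Omg in the wild type (0.81 in the authors' deposited table) and Tnr (-0.83 in the wild type and -0.92 in the knockout without background correction). Among all probes 9.14% were higher and 7.63% lower by that amount in the knockout, while the wild type had 5.93% higher and 4.93% lower. The direction of the 6 changes was the same without normalization between arrays and in the authors' deposited table, where the median of all probes moved from -0.04 to -0.24 and -0.25. The share of calls that were upward was 51.1%, but 28.4% and 19.9% under those 2 scalings.

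The test has few arrays behind it. Without either day 10 array none of the 13827 probes passed, so that 0 of the 6 genes did, with the wild-type array or with the knockout array left out. Without the knockout array of day 35, 2 of 6 passed, Hapln2 and Cntn1, and 503 probes in all. Leaving out the wild-type array of day 35 or either array of day 14 kept all 6 past the threshold. All 6 kept their direction in each of these fits.

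**Figure D1:**
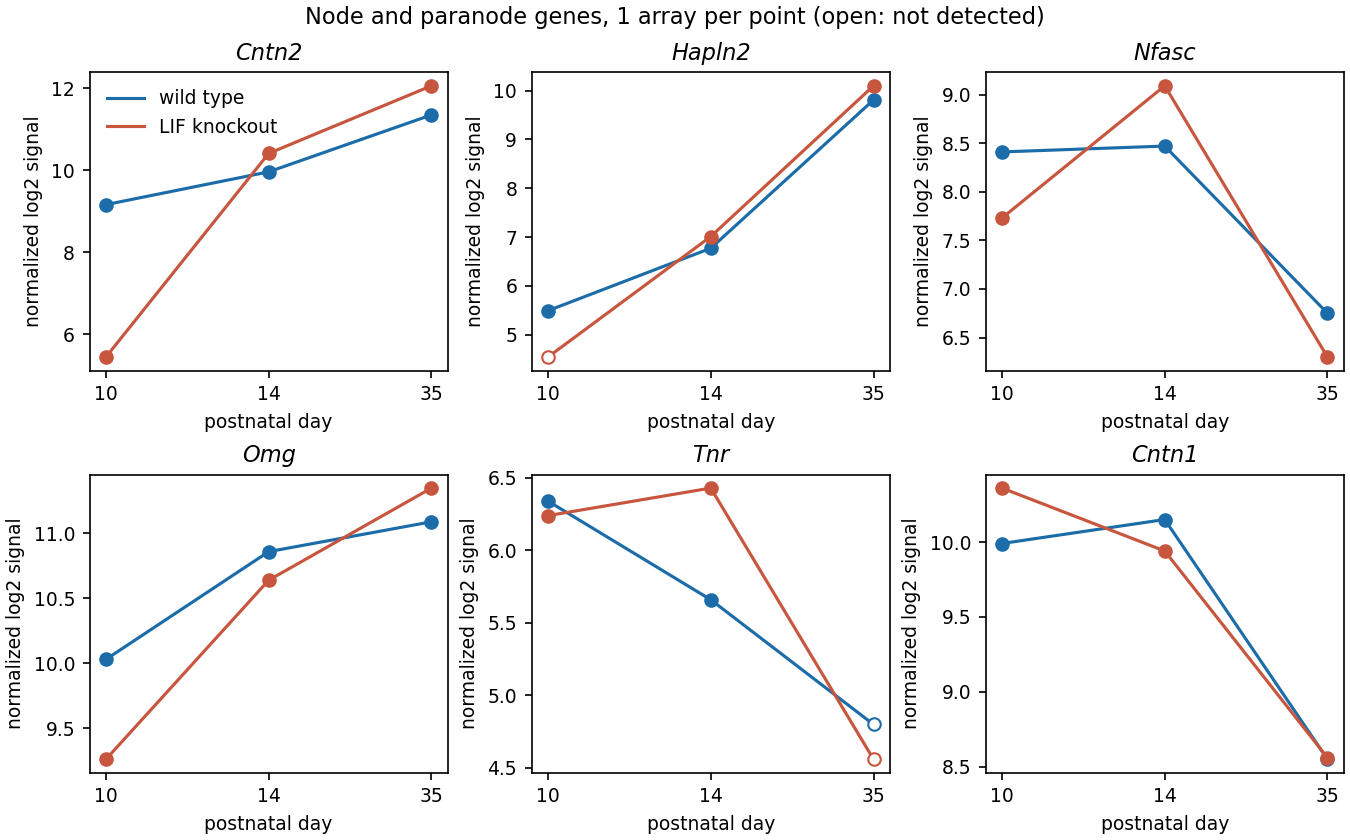
Normalized log2 signal (y axis) against postnatal day (x axis, evenly spaced) for the 6 measured genes, wild type in blue and LIF knockout in red, 1 pooled array per point and open points not detected; y ranges differ between panels. Cntn2, Hapln2 and Omg end higher at day 35 than at day 10 in both genotypes and Nfasc, Tnr and Cntn1 end lower; the knockout point of Cntn2 at day 10 lies at 5.44 against 9.16 in the wild type.

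Cntn2 encodes a GPI-anchored adhesion molecule made by axons and by myelinating glia, which links the membranes of both at the juxtaparanode. At days 10, 14 and 35 its signal was 9.16, 9.96 and 11.35 in the wild type, whereas knockout nerves gave 5.44, 10.41 and 12.06. In raw intensity this was 627.4, 1071.9 and 2538.9 in the wild type against 77.1, 1229.4 and 4090.6 in the knockout. Detected on all 6 arrays, it was higher at each later age in both genotypes, and the knockout array of day 10 stood apart as the lowest. The fitted rise from day 10 to day 35 was 4.41 ± 1.05 (SE; limma adjusted p = 0.0396), which was 2.19 in the wild type and 6.62 in the knockout. That knockout increase was the highest of all 13827 probes, as was its increase of 4.97 from day 10 to day 14. The size of the rise depended on the day 10 arrays, being 2.26 without the knockout one (adjusted p = 0.103) and 6.56 without the wild-type one (adjusted p = 0.0549). Without the day 35 knockout array the adjusted p was 0.147 at 3.24.

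Hapln2 encodes a brain link protein that ties hyaluronan to proteoglycans such as versican around central nodes. It read 5.49, 6.77 and 9.81 in the wild type and 4.54, 7.01 and 10.10 in the knockout at the 3 ages. The knockout array of day 10 was not detected (raw signal 49.0), so differences from it are bounds. Both genotypes were ordered by age without overlap between ages. The rise from day 10 to day 35 was 4.94 ± 0.33 (limma adjusted p = 0.00877), a fit that includes the undetected value. Day 35 was 19.8-fold above day 10 in the wild type and at least 39.8-fold in the knockout, taking the lowest detected signal of the day 10 array as the limit, which holds for this normalized scale. The ratio of raw signals was 11.3 in the wild type and 21.7 in the knockout, and the authors' deposited table gave log2 differences of 3.17 and 4.12. From day 14 to day 35 the rise was 3.07 ± 0.33 (adjusted p = 0.0175).

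Omg encodes a GPI-anchored glycoprotein of oligodendrocytes and neurons, a ligand of the Nogo receptor that has been placed at and around the node. Its signal was 10.03, 10.86 and 11.09 in the wild type and 9.26, 10.64 and 11.35 in the knockout. Both day 10 arrays were below all others. The rise to day 35 was 1.57 ± 0.27 (limma adjusted p = 0.0196), 1.06 in the wild type and 2.09 in the knockout. Between days 14 and 35 the difference was 0.47 ± 0.27 and did not pass (adjusted p = 0.251).

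Cntn1 is the GPI-anchored partner of Caspr on the axon at the paranode and is also made by cells of the oligodendrocyte lineage. It read 9.99, 10.15 and 8.55 in the wild type and 10.36, 9.94 and 8.56 in the knockout. The 4 arrays of the first slide lay together and both day 35 arrays lay lower, at nearly equal values. The fall was -1.62 ± 0.20 from day 10 to day 35 (limma adjusted p = 0.0111) and -1.49 ± 0.20 from day 14 to day 35 (adjusted p = 0.02).

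Nfasc encodes both the axonal neurofascin that gathers sodium channels at the node and the glial form of the paranode. No source used here says which of its transcripts the measured probe detects. The probe read 8.41, 8.47 and 6.75 in the wild type and 7.73, 9.09 and 6.30 in the knockout. Day 35 was lowest in both genotypes. The fall was -2.25 ± 0.33 from day 14 to day 35 (limma adjusted p = 0.0222) and -1.54 ± 0.33 from day 10 (adjusted p = 0.0308).

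Tnr encodes an extracellular matrix glycoprotein secreted by oligodendrocyte lineage cells and by some neurons, which binds contactins, lecticans and sodium channel subunits. Its signal was 6.34, 5.66 and 4.80 in the wild type and 6.24, 6.43 and 4.56 in the knockout, close to background throughout. Neither day 35 array was detected. On the normalized scale day 35 was at least 2.79-fold below day 10 in the wild type and at least 2.59-fold below it in the knockout. These limits do not hold for raw signals, whose ratios of day 35 over day 10 were 0.458 in the wild type and 0.393 in the knockout. The fitted fall of -1.61 ± 0.28 (limma adjusted p = 0.0205) includes those undetected values. Tnr passed the detection filter only through the arrays of days 10 and 14, so its calls are no independent support for a fall. The fall from day 14, -1.36 ± 0.28 (adjusted p = 0.0342), was lost under 4 alternatives of processing: no background correction (-0.73, adjusted p = 0.0554), an offset of 50 (-0.76, adjusted p = 0.0588), no filter on detection (adjusted p = 0.0844) and the authors' deposited table (-0.73, adjusted p = 0.0538). It was also lost with the day 10 arrays left out, and Tnr was not tested among probes detected on all 6 arrays.

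From day 14 to day 35, 4 of the 6 genes passed in limma: Hapln2 rose, and Nfasc, Tnr and Cntn1 fell. Of all probes 14.9% passed, 7.74% higher and 7.12% lower. Cntn2 differed by 1.52 ± 1.05 (adjusted p = 0.34). These calls were lost when either day 10 array, either day 14 array or the day 35 knockout array was left out (0 of 6 each), and all 4 remained without the day 35 wild-type array. From day 10 to day 14, within 1 slide, 0 of 6 passed, as did 0.0% of all probes (1718 at an unadjusted p below 0.05). The fitted differences were 2.89 ± 1.05 for Cntn2 (adjusted p = 0.373), 1.87 ± 0.33 for Hapln2 (adjusted p = 0.266), 1.1 ± 0.27 for Omg (adjusted p = 0.301) and 0.71 ± 0.33 for Nfasc (adjusted p = 0.457). The Cntn2 value was 0.74 without the day 10 knockout array and 5.03 without the day 10 wild-type array. Day 14 exceeded day 10 by more than 1 log2 unit for Cntn2, Hapln2, Nfasc and Omg in the knockout, where 2.7% of all probes did, and for Hapln2 alone in the wild type, where 1.5% did. Without normalization between arrays Nfasc (0.91) and Omg (0.94) did not pass that size in the knockout, nor did Hapln2 in the wild type in the authors' deposited table (0.63). The same day 10 knockout array enters each of those knockout values.

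**Figure D2:**
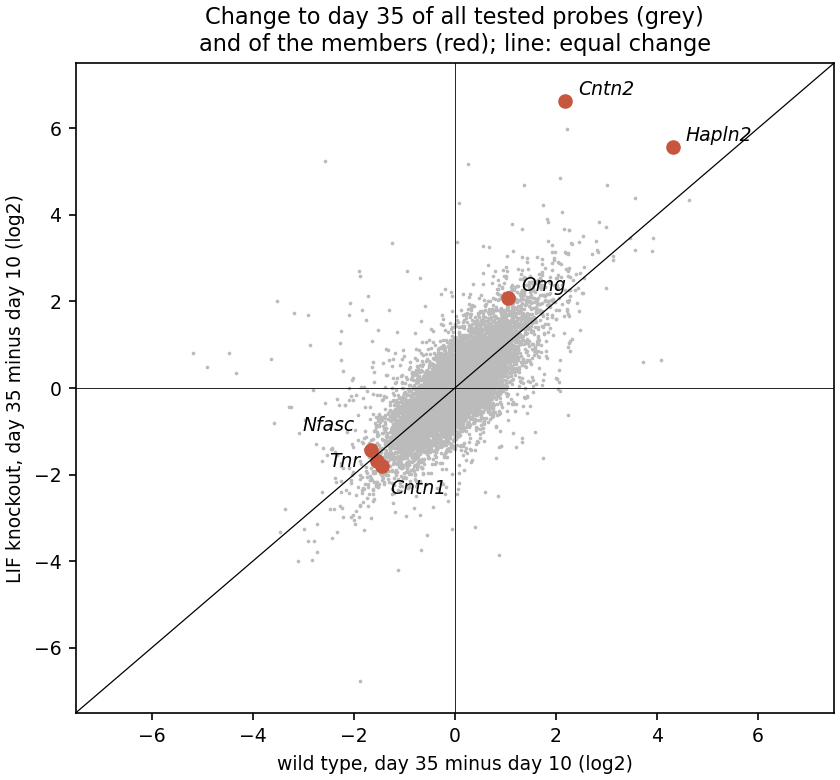
Difference between day 35 and day 10 (log2) in the wild type (x axis) and in the LIF knockout (y axis) for the 13827 probes tested, in grey, and the 6 genes, in red, 1 array per genotype and age. Cntn2 lies at 2.19 and 6.62, well above the line of equal change, and Hapln2 at 4.31 and 5.56. The second Hapln2 value is drawn from the undetected day 10 knockout signal and is not the limit, which is at least 39.8-fold. Nfasc, Tnr and Cntn1 lie near that line between -1.81 and -1.43.

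The largest genotype difference among the 6 genes was that of Cntn2 at day 10. Its signal was 3.72 log2 units lower in the knockout (13.2-fold), the second lowest difference of all 13827 probes. Without background correction the difference was -2.82, and the ratio of raw signals, knockout over wild type, was 0.123. It was the 1 gene of 6 past 1 log2 unit at that age, where 1.69% of all probes were lower and 1.64% higher by that amount. At days 14 and 35 Cntn2 was higher in the knockout, by 0.45 and 0.71. Hapln2 was at least 1.63-fold lower in the knockout at day 10 on the normalized scale (ratio of raw signals 0.644), and then higher by 0.24 and 0.30. Omg differed by -0.77, -0.22 and 0.27 and Nfasc by -0.68, 0.62 and -0.45 at the 3 ages, knockout minus wild type. Tnr differed by -0.10 and 0.77 at days 10 and 14, with both arrays undetected at day 35, and Cntn1 by 0.38, -0.21 and 0.01. At day 14 none of the 6 passed 1 log2 unit (0.485% of probes higher, 0.651% lower), nor at day 35 (1.51% higher, 1.03% lower).

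None of these differences passed a test. As a mean over the ages, 0 of 6 genes and 0.0% of all probes passed in limma (520 probes at an unadjusted p below 0.05), with Cntn2 at -0.85 ± 0.86 (adjusted p = 0.989). In a model that set the day 10 difference against a common difference at days 14 and 35, 0 of 6 and 0.0% passed (735 at an unadjusted p below 0.05). There the term was -4.30 ± 0.29 for Cntn2 (limma adjusted p = 0.886) and -1.22 ± 0.27 for Hapln2 (adjusted p = 0.886). Without normalization between arrays the Cntn2 term was -4.10 and passed (adjusted p = 0.0169), together with 3 other probes. The day 10 wild-type array, on which Eif2s3y was undetected, enters each day 10 difference.

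**Figure D3:**
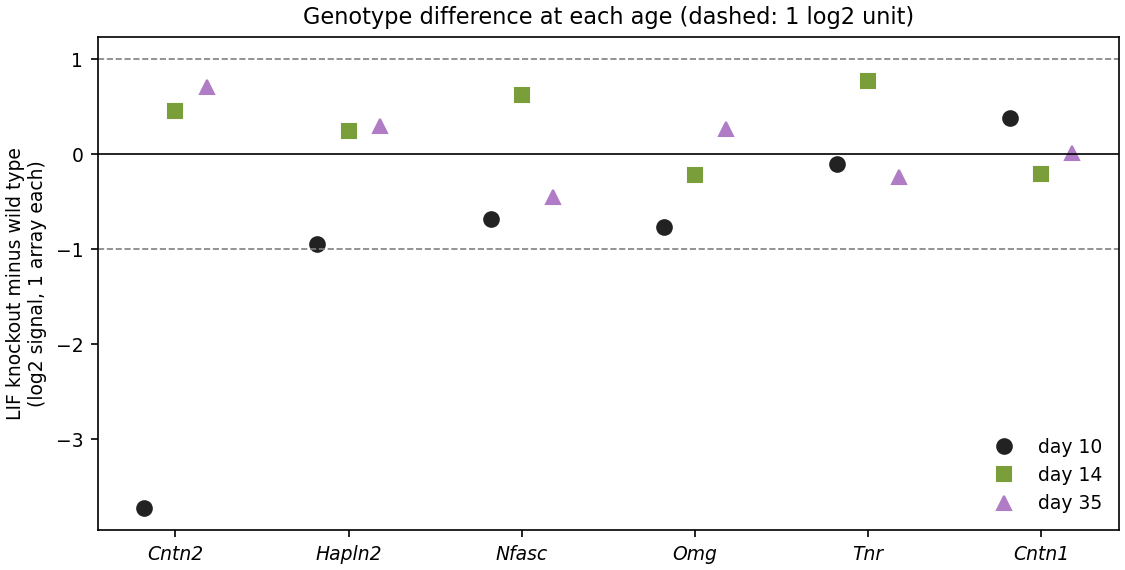
Knockout minus wild type (log2 signal, 1 array each) for the 6 genes at days 10 (circles), 14 (squares) and 35 (triangles), with dashed lines at 1 log2 unit. The Cntn2 circle at -3.72 is the 1 point outside the dashed lines, and all other points lie between -0.95 and 0.77. The Hapln2 circle, at -0.95, is drawn from an undetected knockout signal, and the Tnr triangle from arrays that were both undetected.

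Most myelin markers were, like Cntn2, lower in the knockout at day 10. The median difference of 14 tested myelin markers was -0.89, with 12 of them lower in the knockout. Of all 6616 named genes tested, 3220 were lower (median 0.01). Mbp and Cldn11 differed by 0.0 and 0.04. Mbp lay near the top of the signal range on every array (14.08 to 14.34), where quantile normalization gives equal ranks equal values. Its 0.0 therefore does not show that Mbp was unchanged. Such bright probes also weigh heavily in summed signals. The summed myelin marker signal was 72031 against 94363 in the wild type, while day 14 gave 109110 and 113246. Markers of newly formed oligodendrocytes had a median of 0.19 (7 of 9 higher), precursor markers -0.15 and astrocyte markers 0.07. The axon and neuron markers had a median of 0.17 at day 10, with summed signals of 2606 and 2648. Muscle, photoreceptor and pituitary markers had medians of -0.96, 0.77 and -1.66, endothelial markers 0.43 and meningeal markers 0.42. The part of these markers in the Cntn2 difference was not tested.

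Promoters are shown for a gene that rose (Hapln2), for the gene with the largest genotype difference (Cntn2) and for a gene that fell (Tnr), each with 1 start site listed. The sequences are the 250 bases before the listed start site in RefSeq, build GRCm38.p6, written 5′ to 3′ on the gene's strand. That site is the outer end of the annotated gene for Hapln2, but not for Cntn2 and Tnr. Distances are counted from the listed site. Capitals mark ACAAT and ACAAAG, cores bound by SOX factors such as the oligodendrocyte regulator Sox10, and CTGGCAC or CTGGTAC, the motif of the myelin regulator Myrf, on either strand. These motifs do not overlap each other in the 3 windows.
Hapln2, chr3:88027512-88027761, minus strand: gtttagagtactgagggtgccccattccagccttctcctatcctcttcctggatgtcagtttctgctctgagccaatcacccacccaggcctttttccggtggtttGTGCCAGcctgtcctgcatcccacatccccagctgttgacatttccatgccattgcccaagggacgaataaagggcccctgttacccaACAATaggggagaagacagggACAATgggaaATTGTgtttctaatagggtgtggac
Cntn2, chr1:132542941-132543190, minus strand: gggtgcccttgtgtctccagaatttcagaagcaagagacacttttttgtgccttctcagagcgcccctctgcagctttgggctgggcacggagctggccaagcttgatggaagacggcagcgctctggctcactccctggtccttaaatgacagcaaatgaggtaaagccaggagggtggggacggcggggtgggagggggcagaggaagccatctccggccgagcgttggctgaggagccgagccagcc
Tnr, chr1:159523519-159523768, plus strand: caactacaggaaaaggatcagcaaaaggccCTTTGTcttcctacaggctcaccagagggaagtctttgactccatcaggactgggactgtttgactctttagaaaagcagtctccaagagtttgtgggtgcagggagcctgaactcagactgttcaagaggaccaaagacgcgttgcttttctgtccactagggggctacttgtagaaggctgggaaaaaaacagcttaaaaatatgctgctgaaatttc
The Hapln2 window holds 3 ACAAT cores, 56, 35 and 25 bases before the start, and 1 Myrf motif 144 bases before it. Among 32817 windows of this length in the table, 27.7% hold at least 1 ACAAT and 1.35% hold 3 or more, while 5.92% hold the Myrf motif. Tnr has 1 ACAAAG core 220 bases before the start, as do 16.5% of windows at any position, and the Cntn2 window has none of these letters. The other genes that fell have several listed start sites and are not shown. Nfasc has 2, whose windows hold 1 and 0 ACAAT cores, and Cntn1 has 3, whose windows hold 0, 2 and 1. ACAAT cores occurred before some listed start sites of genes that fell as well as before that of Hapln2. No promoter window was available for Omg, which rose. Whether such cores bear on the direction of change was not tested. These are matches of letters and no measure of binding.

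Cntn2 and Nfasc are neighbours on chromosome 1 in that annotation, and moved in opposite directions to day 35. Omg lies within the Nf1 gene on chromosome 11, together with Evi2a, a transmembrane protein gene. Evi2a read 8.90, 9.84 and 11.02 in the wild type and 7.01, 9.43 and 11.08 in the knockout, so that its knockout value at day 10 was also the lowest of the 6. It rose by 3.10 from day 10 to day 35 (limma adjusted p = 0.0152), as Omg did, and was 1.89 lower in the knockout at day 10. The host gene Nf1, a brake on Ras signalling, lay between 6.36 and 6.93 on all arrays and differed by -0.18 from day 10 to day 35 (adjusted p = 0.442). Hapln2 neighbours Bcan on chromosome 3, which encodes the matrix proteoglycan brevican. Bcan fell by 1.15 (adjusted p = 0.0234; 0.086 without the day 35 wild-type array), opposite to Hapln2.

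Other genes of the node and its surroundings were counted by list and set against all named genes, of which 703 of 6616 rose and 849 fell from day 10 to day 35 with a median of -0.08. These list calls rest on the same arrays as those of the 6 genes, and the lists were also chosen with earlier results of these data known. Of the 56 genes tested in the lists of node, matrix, paranode, juxtaparanode, internode and gene family, 19 passed, and all 19 kept their direction with any single array left out. With either day 10 array left out 0 of the 19 passed, while 4 did without the day 35 knockout array (Sptbn4, Hspg2, Bcan and Evi2a), 9 without the day 35 wild-type array and 15 without either day 14 array. Among 17 genes of the nodal axon, such as sodium channels and their anchors, 5 were tested, with no sodium channel gene among them. Of these 5, 2 rose and 0 fell (median 0.20). Sptbn4, the spectrin beneath nodal channels, was undetected on both day 10 arrays and at least 4.02-fold higher at day 35 in the wild type and 3.33-fold in the knockout (fitted 2.03, limma adjusted p = 0.00959). It passed the detection filter only through the arrays of days 14 and 35, so its call is no independent support for a rise. Fgf13, a sodium channel-binding factor, rose by 0.80 (adjusted p = 0.0352). Kcnn2 differed by 0.20, Ank3, the ankyrin of the node, by 0.07 and Fgf12 by -0.03, and none of these 3 passed.

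Of 17 further genes of the perinodal and basement membrane matrix, 9 were tested, 5 fell and 1 rose, with a median of -1.15. Tnc, the tenascin of immature glia, fell by 2.33 (limma adjusted p = 0.032), and was 1.56 higher in the knockout at day 10. The basement membrane proteoglycan Hspg2 fell by 1.42 (adjusted p = 0.0102), the dystroglycan gene Dag1 by 1.34 (adjusted p = 0.0127) and Tnxb, a tenascin of connective tissue, by 1.21 (adjusted p = 0.0119). The laminin gene Lama2, outside the naming rule and named because it was the 1 that rose, changed by 0.81 (adjusted p = 0.0313). Gldn, whose product gliomedin gathers channels at peripheral nodes, differed between genotypes by -1.26 and 1.83 at days 10 and 14, and was at least 2.59-fold lower in the knockout at day 35. Ptprb differed by 0.85 and Acan, the proteoglycan aggrecan, by -0.24 at day 10.

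Of 13 genes of the paranodal scaffold and its lipids, 10 were tested, 2 rose and 0 fell (median 0.51). Epb41l2 and Epb41l3, band 4.1 proteins that tie paranodal membrane proteins to the cytoskeleton, rose by 1.28 (limma adjusted p = 0.0171) and 1.24 (adjusted p = 0.0176). Ugt8a, which makes the myelin lipid galactosylceramide, differed by 0.82 (adjusted p = 0.0521) and Ank2 by 0.64 (adjusted p = 0.055), and neither passed. At day 10 the knockout differed by -0.93 for Cnp, -0.67 for Ugt8a, -0.49 for Epb41l3 and 0.67 for Sptbn1.

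Among 15 genes of the juxtaparanode besides Cntn2, 11 were tested, 2 rose and 0 fell (median 0.41). Dlg2, a scaffold of potassium channels, rose by 0.87 (limma adjusted p = 0.028). The other that rose, Lgi1, encodes a secreted ligand of the Adam22 receptor family and was undetected on the arrays of days 10 and 14. It passed the detection filter only through the day 35 arrays, so its call (limma adjusted p = 0.0211) is no independent support for a rise. On the normalized scale day 35 was at least 1.80-fold above day 10 in the wild type and 1.99-fold in the knockout. The potassium channel gene Kcna1 differed by 1.15 and did not pass (adjusted p = 0.0582). Cntnap2, which encodes Caspr2, the axonal partner of contactin-2, differed between genotypes by 2.12, -1.22 and 1.27 at days 10, 14 and 35, not in the direction of Cntn2 at days 10 and 14. Its change to day 35 was -0.64 (adjusted p = 0.563). At day 10 the genotype difference was -1.13 for Lgi3, -0.90 for Kcna1 and 0.41 for Kcnab1.

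Of 24 genes of internodal contact and Nogo-receptor signalling, 18 were tested, 5 fell and 0 rose, with a median of -0.59. Notch1, the receptor for which axonal contactin-1 has been described as a ligand on oligodendrocyte lineage cells, fell by 1.40 (limma adjusted p = 0.0108). Tnfrsf19, a co-receptor of the Nogo receptor, fell by 0.93 (adjusted p = 0.0392) and the adhesion gene Nectin3 by 0.90 (adjusted p = 0.0211). The other two that fell, named after their values were seen, were Rtn4rl1, a homologue of the Nogo receptor (-0.71, adjusted p = 0.049), and the protease gene Bace1 (-0.58, adjusted p = 0.0498). Nectin1 differed by -0.95 and did not pass (adjusted p = 0.0654). At day 10 the genotype difference was -0.80 for Cadm4, -0.76 for Nectin1, 0.65 for App and 0.64 for Cadm1. Of 10 family members and locus neighbours 3 were tested, Evi2a, Nf1 and Cntn6, a contactin that fell by 0.72 (adjusted p = 0.0336) and was 0.27 higher in the knockout at day 10.

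**Figure D4:**
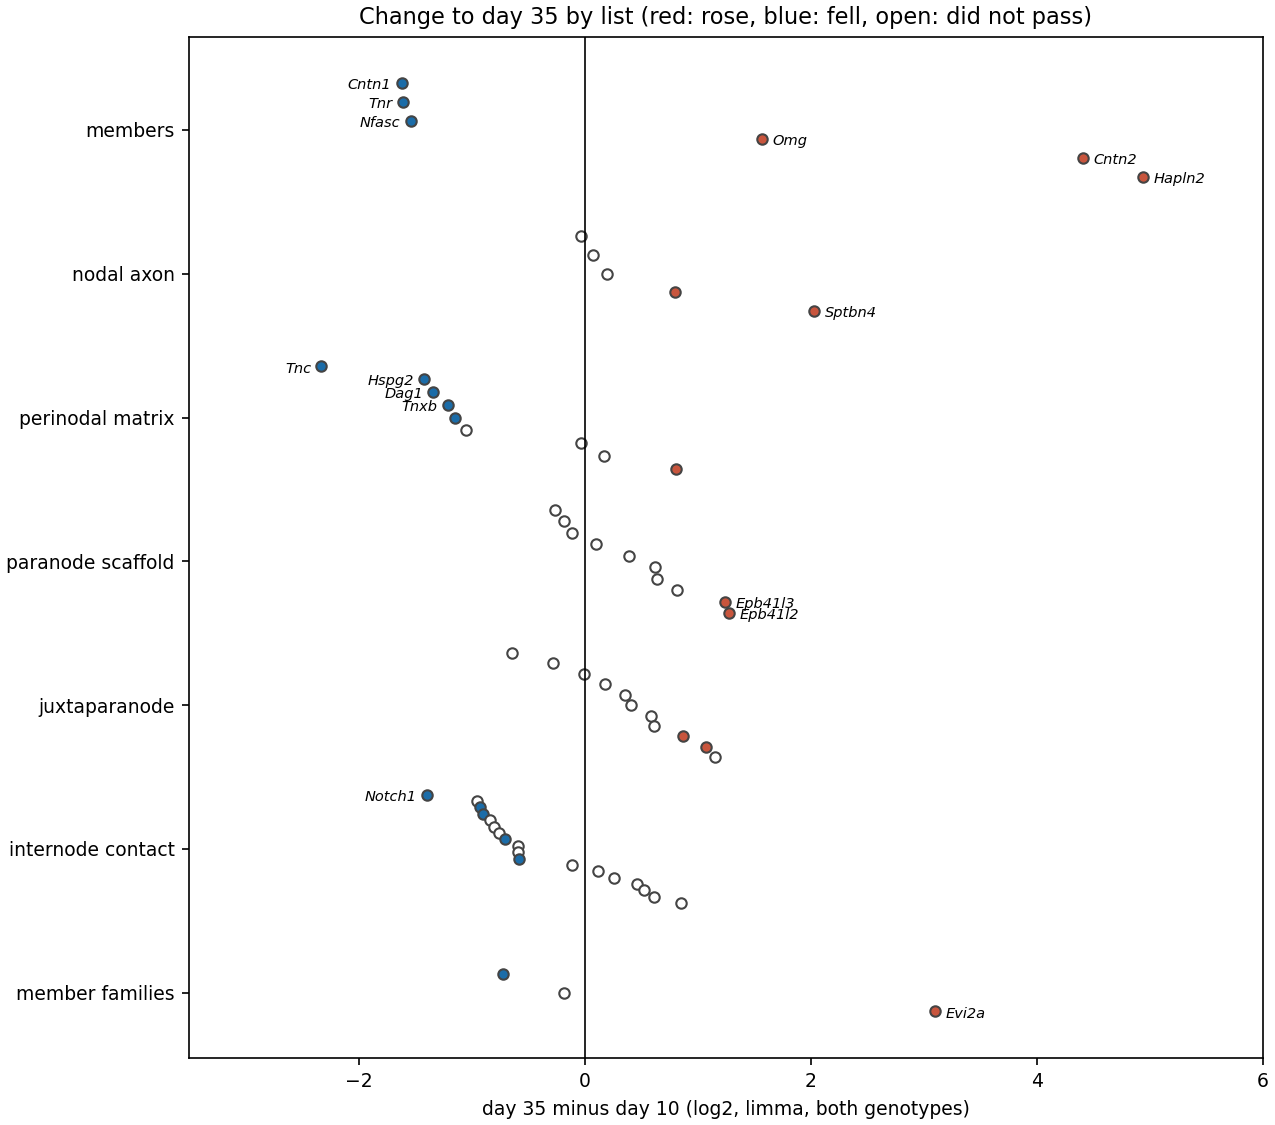
Change from day 10 to day 35 (x axis, log2, limma over both genotypes) of each tested gene by list, 1 point per gene, red where it rose, blue where it fell and open where it did not pass an adjusted p of 0.05; vertical position within a list has no meaning. Cntn2 and Hapln2, at 4.41 and 4.94, lie to the right of every other gene drawn, and Tnc, at -2.33, farthest to the left.

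Markers of stages of the lineage that makes myelin moved as follows beside these genes from day 10 to day 35. Of 14 tested myelin markers 6 rose and 0 fell (median 0.75), of 9 tested markers of newly formed oligodendrocytes 0 rose and 6 fell (median -0.91), and of 6 precursor markers 0 rose and 2 fell (Matn4 and Cacng4; median -0.43). Of 10 astrocyte markers 2 rose and 0 fell (Gfap and Fgfr3; median 0.39), and of 9 axon and neuron markers 3 rose (Syt1, Sncg and Slc17a6) and 1 fell (Gap43; median 0.61). Syt1 was undetected on both day 10 arrays and the day 14 wild-type array, and Slc17a6 on the day 10 wild-type array, so both rises include undetected values. Syt1 passed the detection filter only through later arrays, so its call is no independent support for a rise. Of the 20 marker calls of these lists 0 passed without either day 10 array and 4 without the day 35 knockout array. Marker genes were named after their values were seen. Their part in the changes of the node genes was not tested.

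Likeness of pattern was described by Pearson's r over all 6 arrays, which share ages and slides. The values of Hapln2 include its undetected day 10 knockout signal, and those of Tnr include its undetected day 35 signals in both genotypes. Cntn2 and Omg correlated at 0.966, Hapln2 and Omg at 0.911, Tnr and Cntn1 at 0.902 and Nfasc and Tnr at 0.887. Hapln2 ran against Cntn1 (-0.95) and Tnr (-0.901). Among 1147 or 1148 named genes detected on all arrays with an SD of at least 0.5, those most like Cntn2 were Rhou (0.996), Cryab (0.993) and B3galt5 (0.992). Those most like Hapln2 were Sqstm1 (0.996), Luc7l2 (0.996) and Anln (0.995), and those most like Omg were Calb2 (0.997), Ppp1r14a (0.997) and Dnajc6 (0.991). For Nfasc they were Ehd1 (0.994), Il23a (0.99) and Nectin1 (0.988), for Tnr E2f1 (0.997), Map1b (0.995) and Pcyt1a (0.991), and for Cntn1 Hnrnpl (0.998), Banf1 (0.997) and U2af2 (0.994).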

How the data were processed

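Members and gene lists were chosen with earlier results of these data known. The deposited per-array files hold mean bead intensity on a linear scale, not normalized, exported from BeadStudio 1.5.0.34 per the file headers, for 24606 probes. A detection score was deposited with each intensity, and its complement was used as detection p. The authors' deposited table gives these values scaled by a constant for each array, with many blanks. Its probes carry gene names and were linked to file rows by value within 0.06 signal units (8935 probes).

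Background was corrected with limma 3.58.1 in R 4.3.3 (normexp, offset 16), followed by quantile normalization and log2. Testing was limited to probes detected on 2 or more of 6 arrays. For an undetected value, a fold given as at least used the lowest detected signal of that array, or the value itself if higher. Such limits hold for the normalized scale only. Two-sided limma fits (lmFit, eBayes) used day and genotype (2 residual degrees of freedom), or added a day 10 genotype term (1 residual degree of freedom), with Benjamini-Hochberg adjustment over 13827 probes. P-values rest on how far the single pooled arrays depart from the fitted day and genotype terms, with variances moderated by limma. No spread between replicates of a group enters them, and the number of arrays limits the precision. A gene was represented by its brightest probe. List genes were named by up to 4 of the largest day 10 genotype differences and up to 4 of the largest changes to day 35, and genes alike in pattern by the 3 highest correlations. Alternatives varied background correction, offset, normalization, detection filter, the authors' table and the ages used; leaving out single arrays was added after seeing the data. Scripts were tested on simulated data.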

Additional observations from a re-analysis of the deposited data

Results flagged for a closer look

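The genotype difference of Cntn2 at day 10 was -3.72 log2 units, knockout minus wild type, while those at days 14 and 35 had the opposite sign, 0.45 and 0.71. Each value rests on 1 array per genotype. The test of the day 10 difference against the other ages did not pass (limma adjusted p = 0.886).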

How the results depend on the processing

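The limits are 1 pooled array per group, slide and day 35 that cannot be told apart, 1 array with both Y-linked probes undetected and 1 with Eif2s3y alone undetected despite the male label, and undetected signals for Hapln2 and Tnr. The directions of the 6 changes from day 10 to day 35 were the same under all alternatives run. With no filter on detection 2 of the 6 genes (1904 probes) passed for that change and 2 (1079 probes) for day 14 to day 35. With probes detected on all 6 arrays alone, 4 of the 6 were tested and 2 passed for day 14 to day 35. That change gave 1064 probes without normalization between arrays and 1231 in the authors' table, against 2055, and the upward share of its calls was 41.5% in the authors' table and 61.3% with arrays scaled to their medians, against 52.1%. Without that normalization 1 of the 6 genes, Cntn2, and 4 probes passed for the day 10 genotype term. With single ages, genotypes or arrays left out, the counts ran from 0 to 6 of the 6 genes and 0 to 2420 probes for day 10 to day 35, from 0 to 4 genes and 0 to 946 probes for day 14 to day 35, from 0 to 7 probes for day 10 to day 14 and from 0 to 1 probe for the genotype difference over ages. In those fits the genotype difference over ages ran from -1.64 to 0.58 for Cntn2, -0.36 to 0.27 for Hapln2 (0.0 with an offset of 50), -0.57 to 0.08 for Nfasc, -0.49 to 0.02 for Omg, -0.17 to 0.34 for Tnr and -0.1 to 0.19 for Cntn1. The change from day 10 to day 14 ran from 0.74 to 5.03 for Cntn2, 1.26 to 2.48 for Hapln2, 0.71 to 1.5 for Omg and 0.06 to 1.36 for Nfasc, and from -0.72 to 0.22 for Tnr and from -0.43 to 0.17 for Cntn1. Apart from the omissions, which leave fewer arrays, the cause of these shifts was not tested.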
